A study of Homo sapiens with 6 samples.

Results

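Toll-like receptors and the proteins that work with them were followed in 6 RNA-Seq libraries, 3 labelled LINC00115 KD and 3 labelled WT. The genes were the rows of the count table whose symbol equals Tlr1, Tlr2, Tlr4, Tlr5, Tlr6, Cd14, Ly96, Myd88, Ticam1 or Irak3, which gave 10 of the 22989 genes listed. All samples were described as breast cancer stem cells (BCSC) from paclitaxel (PTX)-resistant MDA-MB-231, a human triple-negative breast cancer line, and the study sorted BCSC by high aldehyde dehydrogenase activity. The KD genotype is a LINC00115 knockdown, made in the study with a short hairpin RNA (shRNA) from a virus and selection with puromycin, and the other genotype is called WT in the labels, while the study's text names a control shRNA (shC). The comparison asks which genes change when LINC00115, a long noncoding RNA, is depleted. Nothing in the labels says that the libraries of a group came from separate cultures, so the p-values measure the spread between these libraries, which may be technical.

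Toll-like receptors are membrane proteins that recognise microbial molecules through leucine-rich repeats outside the cell or in endosomes and signal through a TIR domain in the cytosol. TLR2 recognises bacterial lipopeptides in a pair with TLR1 or TLR6, TLR5 recognises flagellin, and TLR4 recognises lipopolysaccharide together with its co-receptor LY96 (MD-2), to which CD14 passes the ligand. MYD88 is the adaptor of nearly all of these receptors, TICAM1 (TRIF) is the adaptor of TLR3 and the second adaptor of TLR4, and IRAK3 is a kinase-like inhibitor that is best known from monocytes.

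The row symbols of the count table limit what the rows can be called. The symbols are spelled in the way of mouse genes, 5785 of them are Gm or Rik names, and 8156 of the 22989 equal no current or older human symbol. Tlr12 and Tlr13, receptors of mouse with 0 matching human symbols, have rows here. The samples are described as a human line, and the species of the RNA was not settled. The symbols are therefore printed as the table has them, with no positions. LINC00115 itself was not analysed here, so the knockdown was not checked and every direction rests on the labels. The library totals lay between 36979221 and 38799331 counts. Among markers of the line, Vim had between 126885 and 145878 counts and Cd44 between 32751 and 36274, while the epithelial gene Epcam had at most 5. Cdh1, also epithelial, had 1 to 3 counts in WT and 22 to 31 in KD and was called higher. Of the receptor genes that are low in triple-negative cells, Esr1 had 24 to 29 counts in WT and 82 to 105 in KD (called higher), Erbb2 had 592 to 689 and 1029 to 1061 (not called), and Pgr had at most 3. Of the genes behind the aldehyde dehydrogenase sort, Aldh1a1 had 8 to 17 counts in WT and 39 to 52 in KD (called higher). Aldh1a3 had at most 4.

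Tlr2, Tlr6, Cd14, Myd88 and Ticam1 were the members that differed at an adjusted p-value under 0.05, and the 250 bases before the start of each human gene are shown because these members moved in both directions. Sequences are those of RefSeq on GRCh38.p14, written 5′ to 3′ on the gene's strand, and 8 of the 10 members matched an entry by symbol. They are human sequences, and whether they are the promoters of the cells sequenced was not tested. Capitals mark matches to an interferon-stimulated response element (TTTCNNTTTC), a gamma-interferon activation site (TTCNNNGAA) or a kappa B element (GGGNNTTTCC), each searched on both strands.

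TLR2 (chr4:153684030-153684279, plus strand): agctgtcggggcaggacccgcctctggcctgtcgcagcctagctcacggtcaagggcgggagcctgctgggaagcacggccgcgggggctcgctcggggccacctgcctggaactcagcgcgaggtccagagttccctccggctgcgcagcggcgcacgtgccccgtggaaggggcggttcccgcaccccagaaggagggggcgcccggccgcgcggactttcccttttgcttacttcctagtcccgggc
TLR6 (chr4:38856818-38857067, minus strand): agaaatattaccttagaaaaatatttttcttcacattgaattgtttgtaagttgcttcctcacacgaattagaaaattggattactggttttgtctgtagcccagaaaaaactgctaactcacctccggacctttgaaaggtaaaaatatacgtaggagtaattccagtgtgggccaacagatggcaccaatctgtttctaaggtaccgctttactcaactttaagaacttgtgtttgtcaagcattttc
CD14 (chr5:140633176-140633425, minus strand): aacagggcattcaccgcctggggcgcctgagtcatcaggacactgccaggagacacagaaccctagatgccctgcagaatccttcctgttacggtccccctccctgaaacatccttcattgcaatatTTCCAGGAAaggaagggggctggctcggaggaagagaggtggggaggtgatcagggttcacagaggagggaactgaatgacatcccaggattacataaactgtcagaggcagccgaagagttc
MYD88 (chr3:38138411-38138660, plus strand): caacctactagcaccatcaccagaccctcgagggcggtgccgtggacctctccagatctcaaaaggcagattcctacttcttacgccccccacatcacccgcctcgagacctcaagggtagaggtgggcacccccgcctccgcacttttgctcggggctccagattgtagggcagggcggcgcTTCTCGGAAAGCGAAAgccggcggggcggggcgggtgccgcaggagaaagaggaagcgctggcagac
TICAM1 (chr19:4831713-4831962, minus strand): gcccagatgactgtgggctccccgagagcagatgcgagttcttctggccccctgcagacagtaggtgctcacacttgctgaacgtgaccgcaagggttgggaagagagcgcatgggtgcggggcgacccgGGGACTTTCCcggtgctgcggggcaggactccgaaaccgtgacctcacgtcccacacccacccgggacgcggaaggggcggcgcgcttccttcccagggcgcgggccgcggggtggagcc

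The stretch of CD14 held a gamma-interferon activation site, TTCCAGGAA, whose first base lies at −123 from the start. That of MYD88 held an interferon-stimulated response element on the minus strand, GAAAGCGAAA at −61 to −52, overlapped by a gamma-interferon activation site, TTCTCGGAA at −67 to −59. TICAM1 held a kappa B element, GGGACTTTCC at −120 to −111. No match to these 3 patterns lies in the stretches of TLR2 and TLR6. Among 35116 promoter stretches of the same length, 3.02% held the response element, 6.57% the activation site and 1.73% the kappa B element. The matches describe letters only and say nothing about binding.

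Levels are given as normalized CPM (counts scaled to the library total), where the totals were adjusted by TMM to the bulk of genes with little change. A gene was called where edgeR's quasi-likelihood test over 13497 genes gave an adjusted p-value under 0.05 with more than a 2-fold difference. These are the limits that the methods used for differential expression. SE is the standard error of a log2 fold change. Of the members, 9 passed the filter on low counts and 3 of these were called, which is 33.3% beside 20.2% of all genes tested. Tlr2 and Cd14 were called higher in KD, where 10.2% of all genes were, and Tlr6 was called lower, where 9.98% were. Without the threshold on the fold change 5 of the 9 had an adjusted p-value under 0.05, beside 73.4% of all genes. The groups did not overlap in 5 of the 9, beside 75.6% of all genes. The members as a group were thus not called more often than genes in general at that looser rule, and the median of their log2 fold changes was 0.03, beside −0.01 over all genes. In bulk RNA, a different number of cells of a type and a different amount of RNA per cell cannot be told apart.

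**Figure D1:**
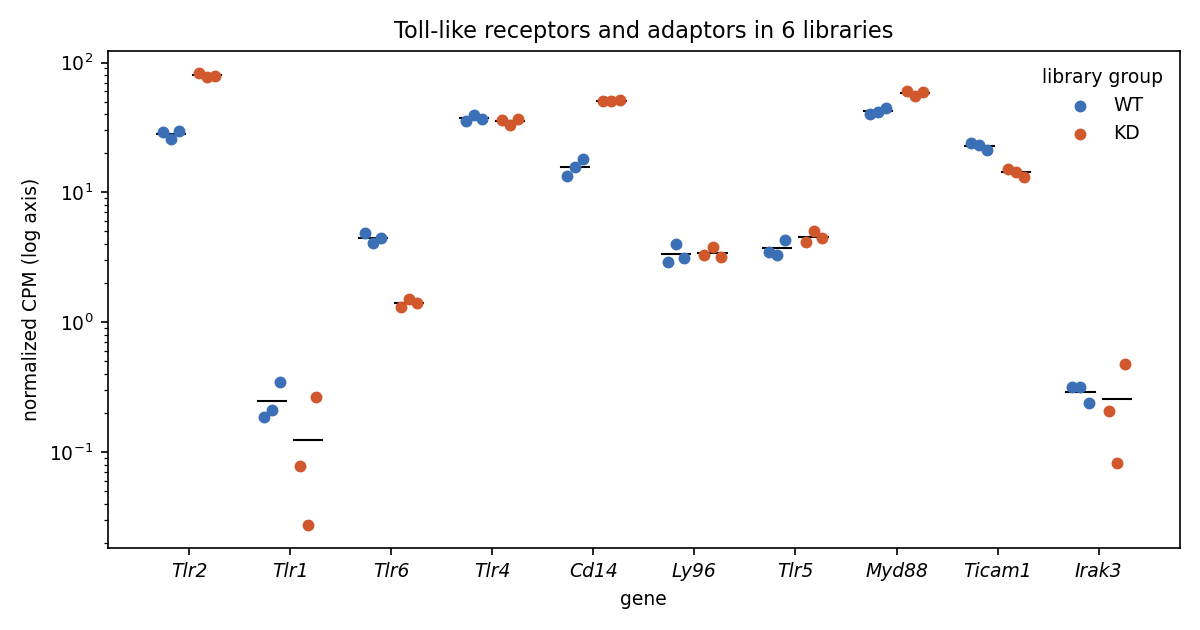
Normalized CPM (log axis) of the 10 genes in each library, with WT libraries in blue, KD libraries in orange and a black line at each group's mean. Tlr2 and Cd14 lie higher in all 3 KD libraries, Tlr6 and Ticam1 lower, and Tlr4, Ly96 and Tlr5 overlap. Levels are not scaled to gene length, so heights are not comparable between genes.

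The lipopeptide receptors split. Tlr2, the subunit common to both pairs, stood at 29.0, 25.9 and 29.9 normalized CPM in WT libraries 1, 2 and 3 and at 82.5, 77.9 and 79.3 in the KD libraries. All KD libraries lay far above all WT libraries. The fitted change was 2.83-fold, a log2 fold change of 1.50 (SE 0.06, edgeR quasi-likelihood adjusted p = 4.98e-22). Tlr6, one of its partners, went the other way. It stood at 4.86, 4.05 and 4.45 normalized CPM in WT and at 1.32, 1.50 and 1.40 in KD, from 153 to 183 counts down to 51 to 55. The fitted log2 fold change was −1.66 (SE 0.23, edgeR quasi-likelihood adjusted p = 9.40e-08), so that WT was 3.17-fold above KD.

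Tlr1, the other partner, was too sparse to be tested. Its counts were 7, 8 and 13 in WT and 3, 1 and 10 in KD, and the groups overlapped. Without the filter on low counts its log2 fold change was −0.99 (SE 0.94, edgeR quasi-likelihood adjusted p = 0.415), with a 95% confidence interval from −2.82 to 0.84, which leaves a difference undetectable at this depth. Tlr1 and Tlr6 are close paralogs and the handling of shared reads by the counting is not stated, so their counts are uncertain in how they divide. The log2 ratio of Tlr1 to Tlr6 counts, in which depth cancels, was −4.71, −4.26 and −3.69 in WT and −4.09, −5.78 and −2.41 in KD. The mean moved by 0.13 (exact permutation test, two-sided, p = 0.9). It changed sign without WT replicate 1 (−0.12) or without KD replicate 3 (−0.72).

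Around Tlr4 one co-receptor moved and the receptor did not reach the thresholds. Tlr4 stood at 35.3, 39.5 and 36.9 normalized CPM in WT and at 36.0, 32.9 and 37.0 in KD. Its groups overlapped, and the log2 fold change of −0.08 had a 95% confidence interval from −0.21 to 0.06 (edgeR quasi-likelihood adjusted p = 0.291). The interval leaves room for a small difference only. Cd14, the protein that delivers lipopolysaccharide, stood at 13.3, 15.7 and 18.1 normalized CPM in WT and at 50.6, 50.9 and 51.4 in KD. The WT libraries spread more than the KD libraries, and every KD library was above every WT library. The fitted change was 3.24-fold, a log2 fold change of 1.70 (SE 0.08, edgeR quasi-likelihood adjusted p = 6.65e-20), the largest increase among the members tested.

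Ly96, the co-receptor that binds lipopolysaccharide within the complex, stood at 2.89, 4.0 and 3.10 normalized CPM in WT and at 3.31, 3.76 and 3.16 in KD. These values overlapped, with 109 to 151 counts in every library. The log2 fold change was 0.03, with a 95% confidence interval from −0.40 to 0.46 (edgeR quasi-likelihood adjusted p = 0.892), and its sign turned with upper quartile scaling and without WT replicate 1, WT replicate 3 or KD replicate 2 (−0.06 at the lowest). Tlr5, the flagellin receptor, stood at 3.48, 3.31 and 4.31 normalized CPM in WT and at 4.14, 5.01 and 4.42 in KD. The ranges overlapped by a single library of each group, and the log2 fold change of 0.29 had a 95% confidence interval from −0.09 to 0.67 (edgeR quasi-likelihood adjusted p = 0.166).

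**Figure D2:**
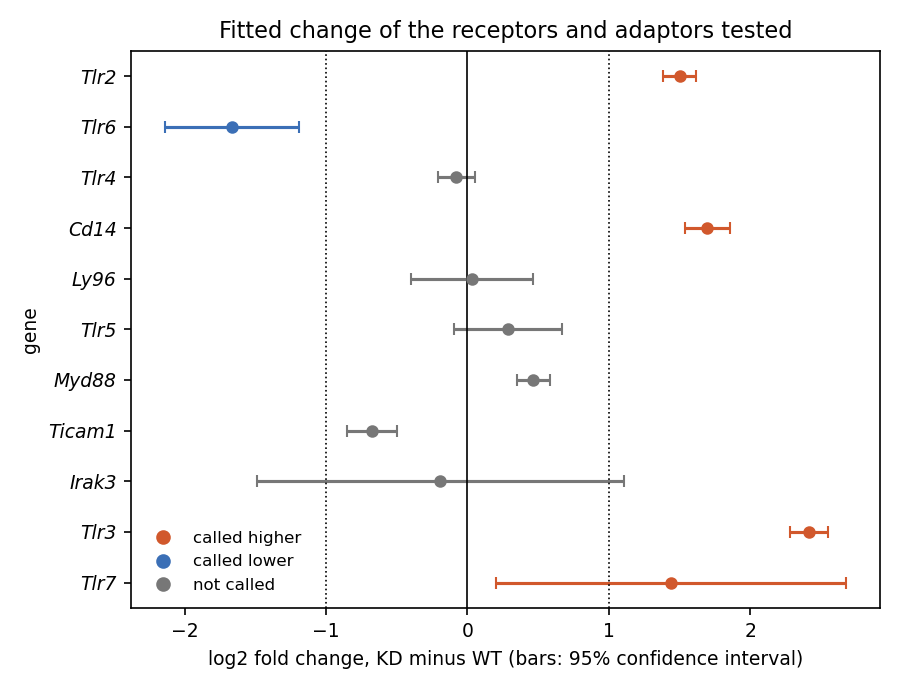
Fitted log2 fold changes, KD minus WT, with 95% confidence intervals, for the 9 members tested and for Tlr3 and Tlr7, with dotted lines at a fold change of 2. The intervals of Tlr2, Cd14 and Tlr3 lie wholly above the upper line and that of Tlr6 wholly below the lower line, while those of Irak3 and Tlr7 are wide.

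The adaptors moved apart by less than the fold threshold each. Myd88 stood at 40.4, 41.6 and 44.6 normalized CPM in WT and at 60.6, 55.5 and 58.9 in KD. The groups did not overlap, and KD was 1.38-fold above WT, a log2 fold change of 0.47 (SE 0.06, edgeR quasi-likelihood adjusted p = 6.31e-09). Ticam1 stood at 23.8, 23.0 and 21.4 normalized CPM in WT and at 15.3, 14.3 and 13.1 in KD. Every KD library was below every WT library, and WT was 1.59-fold above KD, a log2 fold change of −0.67 (SE 0.09, edgeR quasi-likelihood adjusted p = 2.00e-08). Neither gene passed a fold change of 2.

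Irak3, the inhibitor, was near the limit of what was counted. It had 12, 12 and 9 counts in WT and 8, 3 and 18 in KD. The KD libraries fell on both sides of the WT libraries. The log2 fold change was −0.19 with a 95% confidence interval from −1.49 to 1.11 (edgeR quasi-likelihood adjusted p = 0.796), and it was 0.23 without KD replicate 2. A difference in Irak3 was not detectable at this depth.

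Ratios of counts of 2 genes in a library do not depend on the library's scaling, and 5 pairs were compared by role. The log2 ratio of Tlr2 to Tlr4 was −0.29, −0.61 and −0.30 in WT and 1.20, 1.24 and 1.10 in KD. The mean ratio was 2.99-fold higher in KD, without overlap. That of Cd14 to Ly96 was 2.20, 1.97 and 2.55 in WT and 3.93, 3.76 and 4.02 in KD, a 3.17-fold difference, also without overlap. That of Myd88 to Ticam1 was 0.77, 0.86 and 1.06 in WT and 1.99, 1.95 and 2.17 in KD. The means of this last ratio differed 2.21-fold. Each of these 3 pairs gave p = 0.1 in the exact permutation test, two-sided, the smallest that 3 libraries against 3 allow, and 0.167 after adjustment over the 5 pairs. The ratio of Irak3 to Irak4, the inhibitory against the activating kinase, moved by −0.67 with overlapping groups (exact permutation p = 0.6), and by 0.0068 without KD replicate 2.

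**Figure D3:**
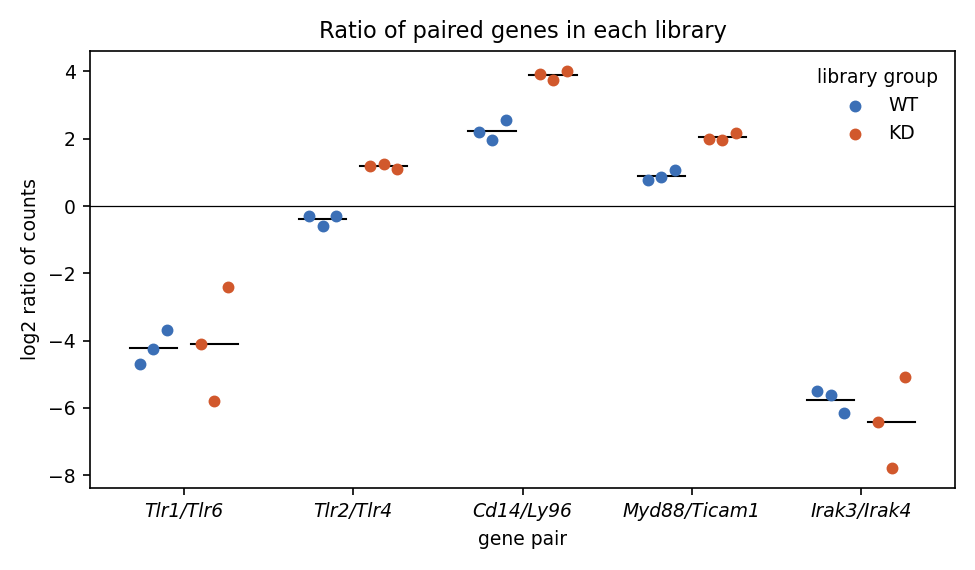
The log2 ratio of the counts of 5 gene pairs in each library, WT in blue and KD in orange, with a black line at each group's mean. The groups are apart for Tlr2/Tlr4, Cd14/Ly96 and Myd88/Ticam1 and overlap for Tlr1/Tlr6 and Irak3/Irak4, whose KD libraries spread the most.

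The pathway lists around the receptors, chosen with earlier results of these data known, were described by counts. Of the other Toll-like receptors, Tlr3, which recognises double-stranded RNA in endosomes and signals through Ticam1, stood at 15.7, 15.8 and 16.9 normalized CPM in WT and at 79.7, 94.4 and 84.2 in KD. All KD libraries lay far above all WT libraries. The fitted change was 5.33-fold, a log2 fold change of 2.41 (SE 0.07, edgeR quasi-likelihood adjusted p = 1.17e-26). The receptor was thus called higher while its adaptor Ticam1 was lower. Tlr7, a receptor of single-stranded RNA, had 7, 4 and 8 counts in WT and 16, 23 and 13 in KD. Its log2 fold change of 1.44 (edgeR quasi-likelihood adjusted p = 0.0339) was not called with DESeq2 (adjusted p = 0.0803), with no low-count filter (0.102), with the replicate block (0.0657) or when any library except KD replicate 3 was left out (0.0534 to 0.145). Tlr8 had 1 count in WT replicate 1 and none elsewhere, Tlr12 had at most 1 count in a library, and Tlr13 had 2 to 7. A count of 0 allows up to 3 counts, for counting error only. Tlr9, Tlr10 and Tlr11 were not analysed here.

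Among helpers and chaperones of the receptors, Lbp and Cd36 were called higher. Lbp, the serum protein that loads lipopolysaccharide onto CD14, had 9, 21 and 38 counts in WT and 575, 503 and 544 in KD, a log2 fold change of 4.57 (SE 0.22, edgeR quasi-likelihood adjusted p = 1.70e-19). It was 5.16 without WT replicate 3. Of 11 helpers 8 were tested, and of these 2 were called higher (25%, beside 10.2% of all genes) and 0 lower (beside 9.98%), with a median log2 fold change of 0.37. Both genes called, Lbp and Cd36, passed the filter on low counts only through the KD libraries. Where each library had to hold 10 counts, 0 helpers were called higher. An adjusted p-value under 0.05 was found in 7 of the 8 (87.5%, beside 73.4% of all genes), 5 of them higher and 2 lower. Cd36, a scavenger receptor that assists the pair of TLR2 and TLR6, had only 2 to 5 counts in WT and 18 to 41 in KD. Unc93b1, which carries endosomal receptors out of the endoplasmic reticulum, and Hsp90b1 (gp96), the chaperone that folds most of the receptors, were not called. Their log2 fold changes were 0.94 and −0.76 (edgeR quasi-likelihood adjusted p = 1.93e-06 and 6.17e-22), and both were chosen after their values were seen. Unc93b1 passed the thresholds without KD replicate 1 (log2 fold change 1.03).

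Downstream of the adaptors most genes stayed within a fold change of 2. Of 24 adaptors, kinases and ligases tested, 2 were called higher (8.33%, beside 10.2% of all genes) and 2 lower (8.33%, beside 9.98%), with a median log2 fold change of 0.02. The genes called higher were the transcription factors Irf7, from 71.5 ± 2.09 to 453.9 ± 12.1 normalized CPM (SD, n = 3 each, log2 fold change 2.67), and Irf5 (1.77). Those called lower were Ikbke, a kinase related to Tbk1, from 73.6 ± 6.80 to 34.0 ± 1.84 normalized CPM (−1.11), and the ubiquitin ligase Peli3 (−1.90, at most 37 counts). Irak1, the kinase of the Myd88 complex, had a log2 fold change of −0.56 and Irak4 of 0.14, and Tirap, which bridges TLR2 and TLR4 to Myd88, of 0.47. These last 3 genes were not called.

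Inhibitors of the pathway held 3 genes called higher and 1 lower among 17 tested (17.6% and 5.88%, beside 10.2% and 9.98% of all genes), with a median log2 fold change of −0.03. Higher were Trafd1 (log2 fold change 2.03), the transcriptional repressor Atf3 (1.24) and Socs1 (1.15), the inhibitor of JAK kinases. Lower was Il1rl1 (−2.01), the receptor of IL-33, with 74, 57 and 14 counts in WT and 23, 4 and 9 in KD. Its groups overlapped, and its log2 fold change was −2.85 without KD replicate 1. Of the 17, 16 had an adjusted p-value under 0.05 (94.1%, beside 73.4% of all genes), 8 higher and 8 lower.

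Genes that Toll-like receptors are known to induce were called in 15 of 28 tested (53.6%, beside 20.2% of all genes), 13 higher and 2 lower, with a median log2 fold change of 0.80. These genes answer to other cytokine receptors too, and whether a receptor of this family drives them was not tested. Acod1, the enzyme that makes itaconate, stood at 22.4 ± 3.15 normalized CPM in WT and 323.6 ± 21.2 in KD (SD, n = 3 each), with 3.85 as the log2 fold change (edgeR quasi-likelihood adjusted p = 1.44e-33). The chemokine Cxcl10 had a log2 fold change of 3.73 and Ptx3, a soluble pattern recognition protein, of 2.95. The 2 called lower were Tnf (−1.59) and Cd40 (−1.26), and Tnf, with at most 51 counts, was not called without WT replicate 2 (edgeR quasi-likelihood adjusted p = 0.0558). Ifnb1, chosen after its values were seen, had 1 to 5 counts in WT and 40 to 87 in KD, a log2 fold change of 4.71 that was 5.84 without WT replicate 2.

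**Figure D4:**
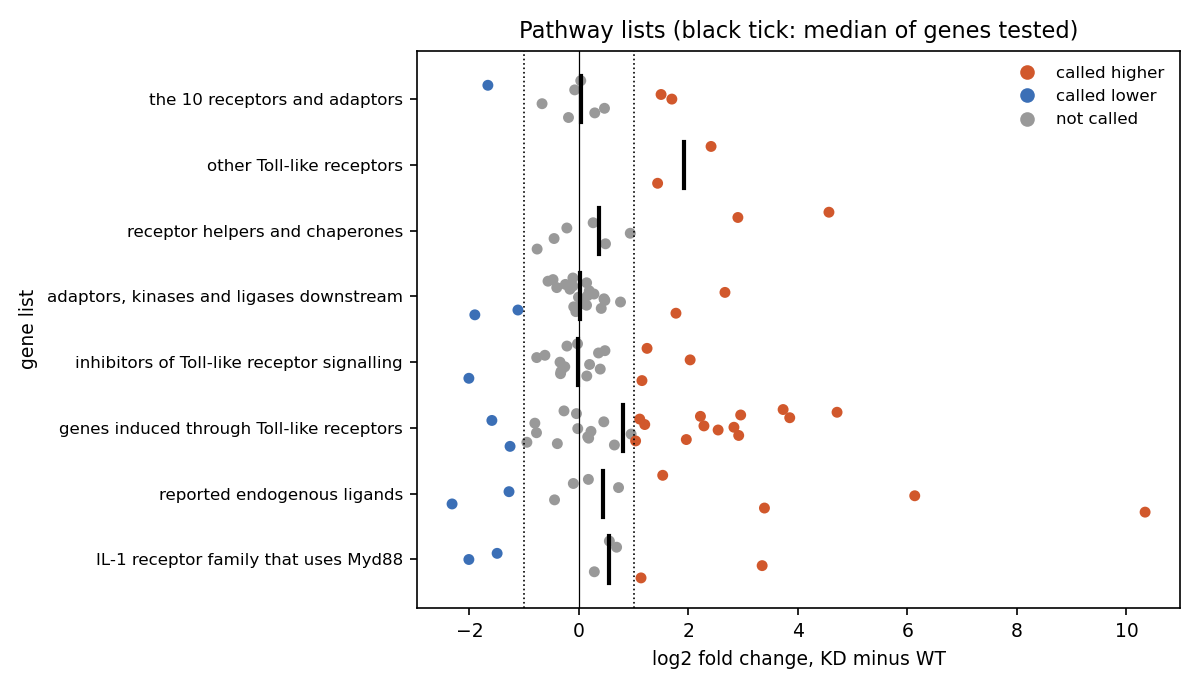
Log2 fold changes, KD minus WT, of the genes tested in each list, with a black tick at the list's median, called genes in colour and dotted lines at a fold change of 2. The induced genes hold the most called points, 15 of 28 tested (53.6%, beside 20.2% of all genes). Larger shares were called of the ligands (60%), the IL-1 receptor family (57.1%) and the other Toll-like receptors (100% of 2 tested). Among these, S100a9, Sftpa1, Bgn and Tlr7 passed the filter on low counts only through the KD libraries. The point farthest right, Sftpa1, had 0 counts in every WT library, so its fitted value depends on the prior count.

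Markers of other cells were set beside Cd14 and Tlr2, since both are genes of monocytes and macrophages. Of 15 monocyte and macrophage markers 7 were tested, and of these 2 were called higher (Lyz2 and Cd74, 28.6% beside 10.2% of all genes) and 2 lower (Mrc1 and Cx3cr1, 28.6% beside 9.98%). The summed level of the 15 was 48.6 to 64.6 normalized CPM in WT and 56.1 to 61.5 in KD, most of it Cd68. The markers that were not tested had at most 13 counts in a library (Ptprc), and Csf1r had at most 3. Lyz2 had 5 to 52 counts in WT and 247 to 250 in KD, and Cd74 had 29 to 46 and 94 to 151. Mrc1 had 226 to 334 counts in WT and 31 to 61 in KD, and Cx3cr1 had 42 to 85 and 0 to 2. Of 8 neutrophil markers 2 were tested, S100a8 and S100a9, and both were called higher (beside 10.2% of all genes). S100a9, with at most 2 counts in WT, passed the filter on low counts only through the KD libraries. Ly6g, Csf3r, Mpo, Elane, Cxcr2 and Ngp were not tested and had at most 13 counts in a library. The sum of the 8 went from 32.2 to 34.5 normalized CPM in WT to 90.2 to 101.1 in KD, nearly all of it S100a8. Lymphocyte markers summed to at most 0.233 normalized CPM.

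Markers of lung and kidney moved with the groups as well. All 8 lung markers were called higher (beside 10.2% of all genes), with sums of 1.70 to 1.88 normalized CPM in WT and 72.4 to 82.3 in KD. Of these, Scgb1a1, Sftpc, Sftpb, Sftpa1 and Sftpd had 0 counts in every WT library, and Foxj1 had at most 5. Those genes passed the filter on low counts only through the KD libraries, so they could only be called higher. Ager and Napsa had at least 23 counts in every library. Scgb1a1, with 0 counts in WT, held the largest part of the lung sum in KD. Of the kidney markers 5 of 7 were called higher (71.4%, beside 10.2% of all genes), with sums of 15.8 to 18.4 in WT and 42.1 to 45.6 in KD. Those called were Kap, Umod, Slc34a1, Acsm2 and Lrp2, with at most 8 counts in a WT library. They passed the filter on low counts only through the KD libraries. Aqp1 (log2 fold change 0.99) and Cubn (−0.45) were not called, and Cubn was lower in every KD library. Nearly all of the kidney sum in WT came from Aqp1 and Cubn. Endothelial markers summed to 0.715 to 1.19 normalized CPM in WT and 57.5 to 60.1 in KD, almost wholly through Cdh5. It was the 1 of the 3 tested that was called (33.3% higher, beside 10.2% of all genes). With 5 to 14 counts in WT, Cdh5 also passed the filter on low counts only through the KD libraries. Of the other 5, Cldn5 (0 counts in each WT library and 9, 9 and 18 in KD) and Kdr (0, 0 and 1 in WT and 2, 10 and 2 in KD) were higher in every KD library but too sparse to be tested, and Pecam1, Vwf and Tek overlapped between the groups at 20 counts or fewer. The fibroblast markers that were called went the other way. Of 7 such genes 4 were tested, and 2 of these were called lower, Pdgfra (log2 fold change −1.25) and Dcn (−1.28), and 0 higher, beside 9.98% and 10.2% of all genes. Col1a1 and Pdgfrb were not called, and Col1a2, Col3a1 and Lum were too sparse to be tested. Col1a2 (mean 0.150 normalized CPM in WT and 0.264 in KD) and Col3a1 (0.185 and 0.232) were higher on average in KD, with overlapping groups. The collagen genes had at most 20 counts in a library. The sum of the 7 markers was 174.5 to 193.4 normalized CPM in WT and 76.4 to 78.4 in KD, nearly all of it Pdgfra. The part of other cells in the levels of Cd14, Tlr2, Tlr3 and Lbp was not tested.

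**Figure D5:**
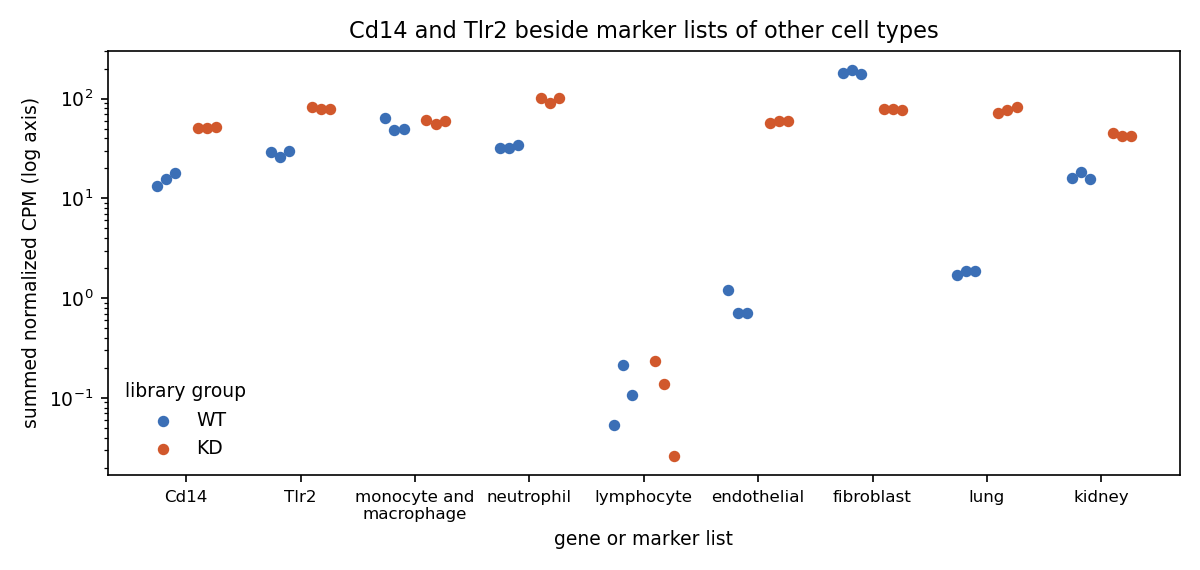
Normalized CPM of Cd14 and Tlr2 and the summed normalized CPM of 7 marker lists in each library (log axis), WT in blue and KD in orange. The monocyte and macrophage sum overlaps between the groups, whereas the neutrophil, endothelial, lung and kidney sums are higher in every KD library and the fibroblast sum is lower.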

How the data were processed

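RNA was sequenced in 3 KD and 3 WT libraries. The authors deposited raw counts, 1 whole number per gene and library, after adapter trimming and HISAT2 mapping. The methods of the study name hg19, whereas the submitters' processing notes name hg38, featureCounts and DESeq2. The annotation and strand setting are not given in the sources used here. Columns were matched to samples by the description in the labels, and 0 columns were left out.

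Counts were analysed in R 4.3.3 with edgeR 4.0.16: filterByExpr (minimum count 10, minimum total 15), TMM scaling (factors 0.9901 to 1.014), quasi-likelihood test with the group only, Benjamini-Hochberg adjustment over all genes tested. The biological coefficient of variation was 5.21%. Standard errors are the log2 fold change over the square root of F. No pair of libraries agreed within sampling noise (chi-square of 3.88 or more for each degree of freedom). The values were 3.88 to 7.6 for pairs within a group and 206 to 226 for pairs of a WT and a KD library. Tested on simulated counts of this comparison (13503 genes past the filter), the pipeline recovered 200 of 200 genes planted with a log2 fold change of 2 either way and called 1 unchanged gene. The planted genes were all well counted, and every gene was given the same dispersion. Recovery of sparse genes or of changes near 2-fold was therefore not tested.

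Members and lists were chosen with earlier results of these data known. Genes named are all members, all other Toll-like receptors, the genes of the ratios, and in each list up to 3 called genes each way with 100 counts or more per library in the higher group and groups apart. Others were named where a count was 5 or less or were chosen after their values were seen. DESeq2 1.42.0, other scalings, filters, thresholds and left-out libraries served as alternatives.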

Additional observations from a re-analysis of the deposited data

How the results depend on the processing

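Cd14 and Tlr2 stayed called higher and Tlr6 lower under all 13 alternatives, with log2 fold changes of 1.59 to 1.81, 1.44 to 1.55 and −1.73 to −1.60. Ly96 turned its sign with upper quartile scaling (−0.0066) and ranged from −0.058 to 0.19 over the left-out libraries, and Irak3 ranged from −0.98 to 0.23. Among ratios, Tlr1/Tlr6 ranged from −0.72 to 0.97 and Irak3/Irak4 from −1.34 to 0.0068 over the left-out libraries. The cause was not tested.

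Without the threshold on the fold change, 2 members were lower, and over all genes 4952 were higher and 4960 lower (36.7% each). In the lists this gave 5 helpers higher and 2 lower (87.5% of those tested either way) and 10 downstream genes higher and 7 lower (70.8%). It gave 8 inhibitors higher and 8 lower (94.1%) and 18 induced genes higher and 6 lower (85.7%). Of the IL-1 receptor family 5 genes were higher and 2 lower (100%). Of all genes 73.4% passed either way, so the downstream share lay near that of genes in general. With at least 10 counts in every library, which removes genes sparse in either group, 903 genes were called higher and 919 lower. The lists then held 1 other Toll-like receptor, 0 helpers and 1 ligand higher. They held 1 downstream gene, 0 inhibitors, 1 induced gene and 1 gene of the IL-1 receptor family lower. The number of genes tested at this filter is not given here, so no share stands beside these counts. Other Toll-like receptors called higher numbered 1 with no low-count filter, with the replicate block and with DESeq2's Wald test, and 1 to 2 with a library left out. Helpers called lower numbered 1 with no low-count filter and with DESeq2. Induced genes called lower numbered 1 to 3 with a library left out.

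With the replicate number as a block, 2 members were called higher and 1 lower, and 1360 and 1316 genes in all, with no call of a member changed. The numbers did not pair the libraries: deviations of libraries with the same number correlated at 0.0135, −0.0194 and −0.0202, and not every library correlated best with its own number. Depth limited Tlr1, Irak3, Tlr7, Tlr8, Tlr12 and Tlr13.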

Other observations

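Ligands of the body that have been reported to act on Toll-like receptors held 4 genes called higher and 2 lower of 10 tested (40% and 20%, beside 10.2% and 9.98% of all genes), with a median log2 fold change of 0.45. Higher were S100a8 and its partner S100a9, calcium-binding proteins of neutrophils, with 1213 to 1300 counts in WT and 3226 to 3831 in KD for S100a8 and with 0 to 2 and 48 to 68 for S100a9. The surfactant protein gene Sftpa1 (0 counts in WT, 156 to 170 in KD) and the proteoglycan gene Bgn (0 to 7 and 29 to 35) were also higher. Without WT replicate 3 the log2 fold change of S100a9 went from 6.13 to 8.80 and that of Bgn from 3.39 to 4.86. Lower were the matrix genes Tnc, from 39.1 ± 3.26 to 7.85 ± 0.919 normalized CPM (SD, n = 3 each, log2 fold change −2.32), and Dcn (−1.28). S100a9, Sftpa1 and Bgn passed the filter on low counts only through the KD libraries, so they could only be called higher. Where each library had to hold 10 counts, 1 of the higher genes, S100a8, was still called.

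Receptors of the IL-1 family signal through Myd88 as well, and of 7 genes of that family tested 2 were called higher and 2 lower (28.6% each, beside 10.2% and 9.98% of all genes), with a median log2 fold change of 0.56. Il1rn, the antagonist of the IL-1 receptor, stood at 5.0 ± 0.601 normalized CPM in WT and 50.9 ± 0.690 in KD (SD, n = 3 each), with 3.35 as the log2 fold change (edgeR quasi-likelihood adjusted p = 2.19e-27), and the cytokine gene Il18 had a log2 fold change of 1.13. Il1r1, the receptor that Il1rn blocks, went from 36.9 ± 3.12 to 13.1 ± 1.03 normalized CPM (log2 fold change −1.49), and Il1rl1 was also called lower, although its groups overlapped. For both Il1rn and Il1r1 the groups did not overlap.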
